A study of Mus musculus with 18 samples.

Results

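The 38 Hox genes described here were taken as a list of gene symbols, out of 26810 mouse genes with a placed start. No measured value was used to choose them, though earlier results of these data were known. The 38 genes lie in 4 clusters: 10 Hoxa genes on chromosome 6, 10 Hoxb genes on chromosome 11, 9 Hoxc genes on chromosome 15 and 9 Hoxd genes on chromosome 2. Hox genes encode homeodomain transcription factors that give positions along the head-to-tail axis, and the limbs, their identity. Within a cluster the low-numbered genes lie at the 3′ end and act towards the head, the high-numbered genes lie at the 5′ end and act towards the tail, and genes of the same number in different clusters are called paralogues. In embryonic stem cells the clusters are textbook targets of Polycomb repressive complex 2, whose catalytic subunit EZH2 methylates lysine 27 of histone H3. H3K27me3 is the mark bound by Polycomb repressive complex 1 at silent genes, whereas H3K36me2 and H3K36me3 are laid down by other enzymes (H3K36me3 along transcribed genes) and hinder methylation of lysine 27 on the same histone tail.

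Chromatin immunoprecipitation and sequencing (ChIP-seq) was done on E14, an established mouse embryonic stem cell line, grown in 2i/LIF medium, in which inhibitors of GSK3 and MEK and the cytokine LIF hold the cells undifferentiated. The medium of all groups contained light, medium or heavy forms of arginine and lysine, used for isotope labelling of proteins. There were 18 libraries in 9 groups of 2. Untreated cells gave 10 libraries, all made with no spike-in: 2 each for the 3 methylation states of lysine 27 (H3K27me1, H3K27me2, H3K27me3) and for H3K36me2 and H3K36me3. Cells kept for 7 days with 10 µM of EPZ-6438, a small-molecule EZH2 inhibitor (EZH2i), or with the same volume of its solvent DMSO, gave 8 libraries for H3K27me3 and H3K36me2, and their chromatin was mixed with fly S2 cell chromatin, at 0.05% of the total, as a spike-in. The untreated H3K27me3 and DMSO libraries are therefore different kinds of control and are never merged here. Nothing in the labels says that the 2 replicates of a group came from separate cultures, so p-values measure only the spread between these libraries, which may be technical. An exact permutation test on a single value cannot go below p = 0.333 with 2 libraries against 2, so tests were made with models fitted over all genes.

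The deposited tracks give reads in 1 kb windows, as described with the processing. A level is the mean number of reads per window at the start of a gene (the 2 adjoining windows within 1 kb of the start) divided by the mean window of the same library, so 1 is the library mean. All windows have the same length, so levels can be compared between genes. For the spike-in libraries the authors' scaled reads per window are also given, which can be compared between DMSO and EZH2i. Library depth, in units of 1e+06 window reads, was 22.9 to 67.5 for the untreated libraries, 21.6 and 27.9 for H3K27me3 in DMSO, 0.992 and 1.78 for H3K27me3 in EZH2i, and 50.5 to 112 for H3K36me2 in the spike-in libraries. The mean window of H3K27me3 fell from 48.7 and 35.7 scaled reads in DMSO to 0.0911 and 0.0668 in EZH2i, 534-fold over the genome. A check of the cell type used H3K36me3 over gene bodies, where 8 embryonic stem cell genes had mean levels from 4.19 to 8.06, against 0.275 to 2.01 for fibroblast genes, 0.891 to 2.00 for endoderm genes and 0.643 to 2.56 for neural genes.

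In untreated cells H3K27me3 was the mark whose level at Hox starts differed most from that at all gene starts. The median level of the 38 starts was 8.37 in replicate 1 and 10.3 in replicate 2, against 0.745 and 0.750 over all gene starts. Only Hoxc13 stayed below the library mean (37 of 38 means were above 1), and 19 members in replicate 1 and 27 in replicate 2 were among the highest 5% of all starts. Such levels were not particular to Hox genes. Among the cell type genes with a placed start, the neural genes had mean H3K27me3 levels of 4.32 to 16.8 and the endoderm gene Foxa2 8.53. The fibroblast genes had 0.204 to 4.22 and the embryonic stem cell genes 0.0392 to 6.23. H3K27me1 was low, with medians of 0.660 and 0.287 against 1.08 and 0.845 over all starts, and all 38 means were under 1. H3K27me2 was also low at most members, with medians of 0.752 and 0.472 against 1.05 and 1.03, and 30 of 38 means were under 1. The H3K36 marks lay above the median start. H3K36me2 had medians of 2.2 and 1.54 against 1.46 and 1.30, and H3K36me3 had medians of 1.66 and 1.58 against 1.08 and 1.03. These are values of single marks on their own scales, since each library was divided by its own mean, and they do not compare the amounts of different marks.

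**Figure D1:**
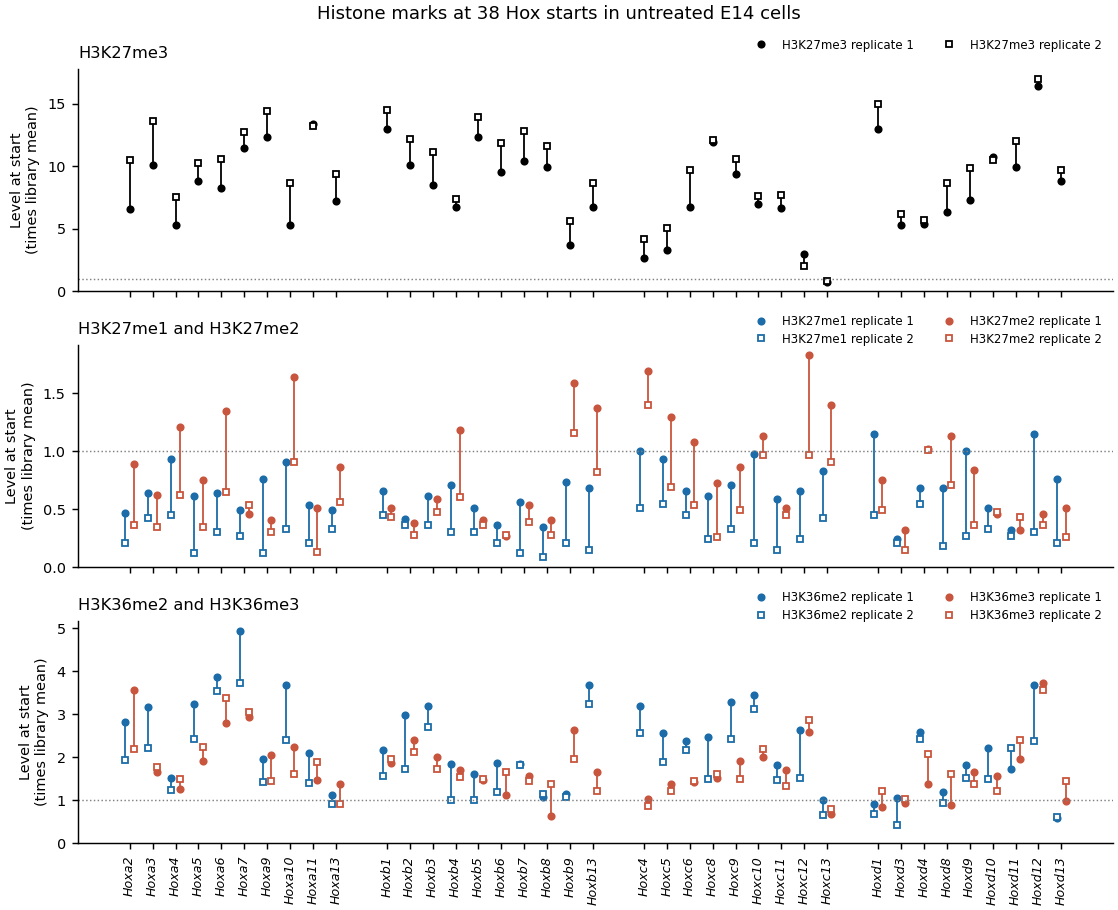
Level of each mark at the start of each of the 38 Hox genes in untreated cells, in times the library mean (dotted line at 1), with the genes of each cluster side by side, filled points for replicate 1 and open points for replicate 2, and a separate scale in each panel. H3K27me3 lies above 1 at every gene except Hoxc13, whereas H3K27me1 lies below or near 1 at all of them.

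In the Hoxa cluster the highest untreated H3K27me3 level was at Hoxa9, a factor of blood progenitors that is often raised in leukaemia. Its level was 12.4 and 14.4 (13.4 ± 1.47, SD, n = 2). Hoxa11, which patterns the forearm and the kidney, was close behind with 13.3 and 13.2. The lowest was Hoxa4, with 5.29 and 7.50 (6.40 ± 1.56, SD, n = 2), below both libraries of Hoxa9. Hoxa10, needed in the uterus, had 5.29 and 8.62, a range that holds the range of Hoxa4, so the order of Hoxa4 and Hoxa10 was not resolved. The other members, from Hoxa2 of the hindbrain to Hoxa13 of the digits, had values between 6.59 and 13.6.

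In the Hoxb cluster the highest level was at Hoxb1, which specifies the fourth segment of the hindbrain. Hoxb1 had 13.0 and 14.5 (13.8 ± 1.09, SD, n = 2), and Hoxb5 had 12.4 and 13.9, which overlaps it. The lowest was Hoxb9, a gene of the thoracic region, with 3.69 and 5.62 (4.66 ± 1.37, SD, n = 2). Next came Hoxb4, known for expanding blood stem cells, at 6.75 and 7.36, and Hoxb13, known from the prostate, at 6.75 and 8.67. Hoxb9 was below both of these in both libraries. Hoxb13 lies apart from the cluster, and over the 64.7 kb between Hoxb13 and Hoxb9 the level was 1.81 and 2.40.

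The Hoxc cluster held the lowest member of all. Hoxc8, a gene of the thoracic spine and nerves, was the highest at 12.0 and 12.1 (12.0 ± 0.092, SD, n = 2). Hoxc13, which drives hair keratins in the follicle, had 0.706 and 0.797 (0.751 ± 0.0642, SD, n = 2), the lowest of all 38. Hoxc12 beside it had 2.98 and 2.02, and Hoxc4 at the other end had 2.63 and 4.17, so the cluster was lowest at both ends. In the DMSO libraries Hoxc13 was higher, at 3.60 and 3.73, and was still the lowest of the 38.

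In the Hoxd cluster Hoxd12, a limb gene, had the highest untreated level of all members, 16.4 and 17.0 (16.7 ± 0.377, SD, n = 2). Hoxd1, at the opposite end of the cluster, followed with 13.0 and 15.0. The lowest were Hoxd4, a gene of the hindbrain and neck, with 5.37 and 5.72 (5.55 ± 0.244, SD, n = 2), and Hoxd3 with 5.29 and 6.19, which did not differ beyond their spread. Hoxd13, the digit gene at the 5′ end, had 8.79 and 9.65, far below its neighbour Hoxd12.

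The cluster medians were 9.53 ± 1.41 for Hoxa, 10.8 ± 1.40 for Hoxb, 7.13 ± 0.654 for Hoxc and 9.31 ± 0.748 for Hoxd (SD of the 2 libraries' medians, n = 2). Membership of a cluster took up 24.2% and 29.1% of the variance among the 38 log2 levels in the libraries, and the paralogue number 27.6% and 28.9%; the 13 paralogue groups hold few genes each, so neither share is read as an effect. By paralogue number, group 1 (Hoxb1 and Hoxd1) had the highest mean, 13.9 ± 1.26 (SD, n = 2 libraries), and group 4 (Hoxa4, Hoxb4, Hoxc4 and Hoxd4) the lowest, 5.60 ± 0.832. Level did not follow the paralogue number within the clusters in a common way. The number stands here for the order from the 3′ to the 5′ end. Its rank correlation with level averaged 0.125 for Hoxa (n = 10 genes, 0.255 and -0.00606 in the libraries), -0.522 for Hoxb (n = 10), -0.258 for Hoxc (n = 9) and 0.367 for Hoxd (n = 9). Over gene bodies the Hoxb and Hoxd values were -0.206 and -0.05. The genes of a cluster share libraries and sit side by side in the same peaks, so these are descriptions only. The listed starts of Hoxa3, Hoxb3 and Hoxd3 lie out of their numerical order, and the long listed bodies of Hoxa3, Hoxb3 and Hoxd3 (44, 41 and 36 windows) overlap other members.

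The authors' deposited peaks, called from the untreated libraries, joined neighbouring Hox genes into long domains. All 38 starts had an H3K27me3 peak over at least 1000 bp of the 2 kb around them, against 35.7% of all starts, and 7 peaks held them all. On mm10 these were a 94 kb peak over Hoxa2 to Hoxa11 (chr6:52161001-52255000), a 118.5 kb peak over Hoxb1 to Hoxb9 (chr11:96268501-96387000), a 100.5 kb peak over Hoxc4 to Hoxc12 (chr15:102935501-103036000) and a 147 kb peak over all 9 Hoxd genes (chr2:74640501-74787500), with separate peaks of 73.5 kb at Hoxa13, 77.5 kb at Hoxb13 and 17.5 kb at Hoxc13. The median H3K27me3 peak was 7 kb, and 99.7% of the peaks were shorter than the Hoxd peak. An H3K36me2 peak covered 31 of the starts by the same 1000 bp rule, against 53.7% of all starts. The 7 that missed it were Hoxa13, Hoxb8, Hoxb9, Hoxd1, Hoxd3, Hoxd8 and Hoxd13. Of these, Hoxa13, Hoxb8 and Hoxd8 had 379, 596 and 886 bp in a peak, and the others had none. H3K27me2 peaks covered Hoxb9, Hoxc4 and Hoxc12 only (3 of 38, against 36.2%), and H3K27me1 peaks covered none (against 25%). No peak list was used here for H3K36me3.

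H3K27me3 also spread past the clusters, to an unequal degree. Over the Hoxa genes the untreated level was 6.95 and 9.06, and in the 20 kb that began 10 kb outside, it was 1.36 and 2.06 on the 3′ side and 4.70 and 5.04 on the 5′ side. The Hoxd cluster had 7.22 and 8.39, with 1.95 and 2.02 on the 3′ side and 4.55 and 5.37 on the 5′ side, where the homeobox gene Evx2 lies. The Hoxc cluster had 4.65 and 5.74, with 2.05 and 3.29 and with 2.13 and 2.90 beside it. In Hoxb the 5′ flank beyond Hoxb13 (6.37 and 8.14) was as high as the whole interval from Hoxb13 to Hoxb1 (5.98 and 7.16). That interval counts the 64.7 kb between Hoxb13 and Hoxb9 (1.81 and 2.40), which lowers its mean. The flank is therefore not read as equal to the part that holds the genes. The 3′ flank was lower (3.49 and 4.06). H3K36me2 differed less between clusters and flanks, with mean untreated levels of 1.70 (Hoxd) to 2.32 (Hoxc) over the clusters and 1.09 (the 5′ flank of Hoxd) to 2.70 (the 5′ flank of Hoxa) beside them.

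**Figure D2:**
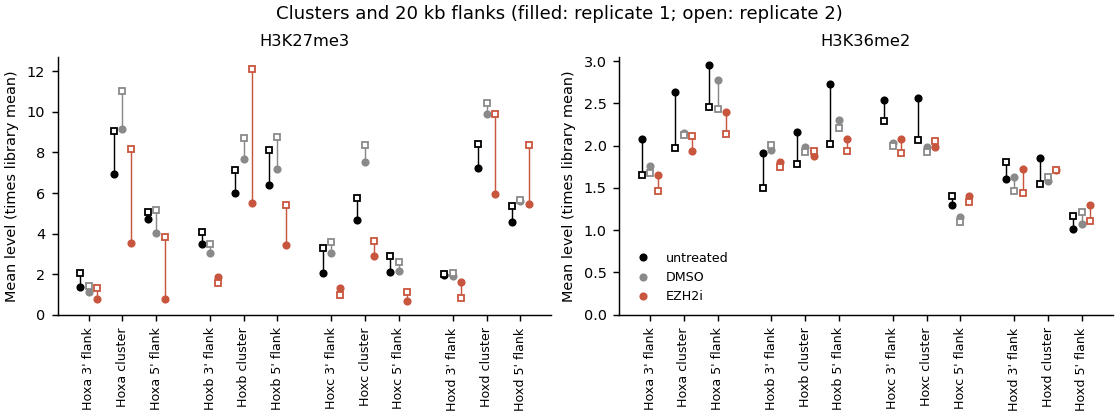
Mean H3K27me3 and H3K36me2 levels over each Hox cluster and over the 20 kb on each side, beginning 10 kb outside the cluster, in times the library mean, for untreated, DMSO and EZH2i libraries, with filled points for replicate 1 and open points for replicate 2. The 3′ H3K27me3 flanks of Hoxa and Hoxd lie well below their clusters in untreated cells. The 5′ flank of Hoxb is as high as its cluster, whose mean includes the low stretch between Hoxb13 and Hoxb9.

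Where the marks varied among the 38 starts, H3K27me2 ran against H3K27me3. Spearman's rho between them was -0.711 to -0.639 over the 4 pairings of untreated libraries (n = 38 genes). Hoxc4 shows it with the highest H3K27me2 mean among the 38 (1.69 and 1.40) beside a low H3K27me3 level (2.63 and 4.17), and Hoxa11 shows the reverse, with H3K27me2 at 0.511 and 0.129. H3K36me2 and H3K36me3 varied together over the genes (rho 0.471 to 0.656), and H3K36me2 had almost no relation to H3K27me3 (rho 0.0226 to 0.110). H3K36me2 was highest at Hoxa7, a thoracic gene, with 4.94 and 3.73 beside H3K27me3 levels of 11.4 and 12.7, and lowest at Hoxd13, with 0.586 and 0.616. H3K36me3 was highest at Hoxd12, with 3.72 and 3.56, the gene with the highest H3K27me3. The replicate libraries of H3K27me1 ordered the genes differently (rho 0.337), against 0.951 for H3K27me3, so no order is read from H3K27me1. Neighbouring genes share peaks and the marks share base composition and mappability, so these correlations across genes are descriptions and carry no test.

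Inhibition of EZH2 for 7 days removed nearly all H3K27me3 reads from every Hox start on the spike-in scale. The median of the 38 starts was 636 and 502 scaled reads per window in the DMSO libraries (175 to 1055, and 133 to 800) and 0.424 and 0.569 in the EZH2i libraries (at most 2.90 and 4.06). No EZH2i value came near a DMSO value. With limma on log2(scaled reads + 1) and Benjamini-Hochberg adjustment over 17634 gene starts, 38 of 38 were lower, as were 100% of all tested starts, so the call itself did not set Hox genes apart. The members' log2 differences ran from -9.04 to -6.94 with a median of -8.33, against a median of -6.18 over all starts. The pseudocount of 1 exceeds most EZH2i values and understates these falls. It also ties each difference largely to the DMSO level, which was higher at the members, so these medians do not compare the falls. With limma-voom, a weighted form of the test on window reads, the medians were -9.99 over the members and -9.10 over all starts. The ratio of the mean scaled reads gave a median 1071-fold fall over the members, with Hoxb9 entered at its bound. The mean window of the whole library fell 534-fold. This ratio was not computed for all gene starts, so a larger fall is not read as particular to Hox genes. Fewer cells or alleles with the mark and less mark on each cannot be told apart in such bulk chromatin.

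**Figure D3:**
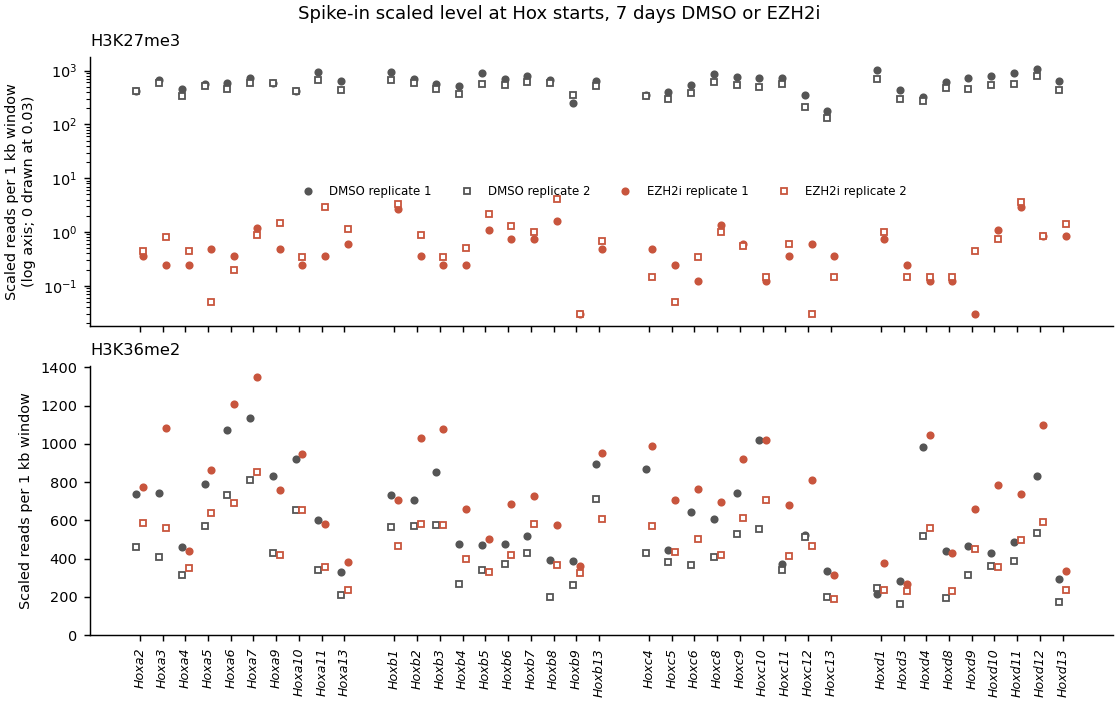
Scaled reads per 1 kb window at the start of each Hox gene after DMSO or EZH2i, for H3K27me3 (log axis, with 0 drawn at its foot) and H3K36me2 (linear axis), with 1 point per library. H3K27me3 drops from between 133 and 1055 to 4.06 or less at every gene, whereas the H3K36me2 points of the groups largely overlap.

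The size of the fall differed between genes more than 10-fold, and it was measured on few reads. An EZH2i start had a median of 3.5 reads in replicate 1 (0 to 24) and 11.5 in replicate 2 (0 to 82), and 1 read per start is worth more in replicate 1, the shallower library. Hoxb8, a trunk gene also active in myeloid progenitors, had the smallest fall. It went from 672 and 580 scaled reads per window to 1.57 and 4.06 (13 and 82 reads), a 222-fold fall. Hoxd11, which with Hoxa11 patterns the forearm, went from 891 and 553 to 2.90 and 3.56 (24 and 72 reads), a 223-fold fall. Hoxb1 went from 939 and 659 to 2.66 and 3.32 (22 and 67 reads), a 267-fold fall. Hoxb8, Hoxd11 and Hoxb1 were the 3 members with the smallest falls.

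At the other end Hoxc10, a gene of hindlimb motor neurons, went from 719 and 494 scaled reads per window to 0.121 and 0.148 (1 and 3 reads), a 4500-fold fall, the largest ratio. Hoxd8, a trunk gene, went from 615 and 484 to the same values as Hoxc10, and fell 4077-fold. Hoxb9 was at 253 and 354 in DMSO and had no read in either EZH2i library, so its fall was at least 1186-fold, with the bound set at 3 reads per library. Hoxc5, a gene of the neck region, kept 3 reads in all and fell 2405-fold, with a counting interval (exact Poisson, 95%) from 823-fold to 11663-fold. Such counts cover counting error only and separate the extremes, not close neighbours in the order. The interval also takes each read as counted once, although a read may be counted in more than 1 window. The remaining members named for being highest or lowest in their cluster before treatment were Hoxa9 (596-fold), Hoxa4 (1170-fold), Hoxc8 (631-fold), Hoxc13 (603-fold), Hoxd12 (1099-fold) and Hoxd4 (2227-fold). Starting level and fall did not follow a fixed order among single genes. Hoxd12 started highest and fell more than Hoxc13, which started lowest. In contrast, Hoxb1 (mean of 799 scaled reads per window in DMSO) fell 267-fold, less than Hoxd4 (mean of 300), which fell 2227-fold. The relation over all 38 members is not given here.

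The 3 genes with the highest and the 3 with the lowest mean level after EZH2i, among the 22 members with a promoter sequence, are shown as sequence, to let the density of CpG dinucleotides be read beside the levels. Each run is the 300 bases from 250 before to 50 after the start, from RefSeq on GRCm38.p6, 5′ to 3′ on the plus strand, with CpG in capitals. The high group is Hoxb8 (chr11:96281655-96281954), Hoxb1 (chr11:96365508-96365807) and Hoxd11, which has 2 listed starts (chr2:74679308-74679607, the one measured, and chr2:74682073-74682372). The low group is Hoxd4 (chr2:74721728-74722027) and Hoxd8 (chr2:74704365-74704664), which had 1 and 3 reads each, and Hoxd3 (chr2:74711743-74712042), a gene of the neck region that had 2 and 3 reads.
Hoxb8: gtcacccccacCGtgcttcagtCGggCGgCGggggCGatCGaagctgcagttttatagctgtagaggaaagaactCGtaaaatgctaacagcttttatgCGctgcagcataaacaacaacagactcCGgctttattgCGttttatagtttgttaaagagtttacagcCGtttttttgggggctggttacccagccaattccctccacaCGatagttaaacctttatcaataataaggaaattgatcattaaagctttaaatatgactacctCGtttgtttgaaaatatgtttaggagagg
Hoxb1: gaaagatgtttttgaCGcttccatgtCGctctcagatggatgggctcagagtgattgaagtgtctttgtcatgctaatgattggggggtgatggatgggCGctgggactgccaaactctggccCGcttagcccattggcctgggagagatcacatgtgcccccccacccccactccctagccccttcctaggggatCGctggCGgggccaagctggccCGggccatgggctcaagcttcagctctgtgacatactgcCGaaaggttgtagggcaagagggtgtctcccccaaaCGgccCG
Hoxd11, measured start: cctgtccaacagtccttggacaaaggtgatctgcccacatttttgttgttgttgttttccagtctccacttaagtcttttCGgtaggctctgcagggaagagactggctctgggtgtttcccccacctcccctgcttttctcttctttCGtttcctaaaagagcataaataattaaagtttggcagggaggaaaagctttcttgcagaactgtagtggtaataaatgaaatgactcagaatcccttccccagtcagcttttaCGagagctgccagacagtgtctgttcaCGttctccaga
Hoxd11, the second start: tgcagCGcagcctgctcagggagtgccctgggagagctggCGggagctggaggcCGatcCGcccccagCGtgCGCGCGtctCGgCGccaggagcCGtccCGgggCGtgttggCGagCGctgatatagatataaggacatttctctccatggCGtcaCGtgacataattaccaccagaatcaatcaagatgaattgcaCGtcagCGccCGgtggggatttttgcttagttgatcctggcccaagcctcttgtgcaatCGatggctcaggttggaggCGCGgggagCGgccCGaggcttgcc
Hoxd4: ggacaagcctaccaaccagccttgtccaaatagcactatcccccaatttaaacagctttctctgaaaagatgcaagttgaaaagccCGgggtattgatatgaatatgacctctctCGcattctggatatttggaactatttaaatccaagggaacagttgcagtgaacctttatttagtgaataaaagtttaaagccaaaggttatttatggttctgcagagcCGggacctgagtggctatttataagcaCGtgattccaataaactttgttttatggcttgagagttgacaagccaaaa
Hoxd8: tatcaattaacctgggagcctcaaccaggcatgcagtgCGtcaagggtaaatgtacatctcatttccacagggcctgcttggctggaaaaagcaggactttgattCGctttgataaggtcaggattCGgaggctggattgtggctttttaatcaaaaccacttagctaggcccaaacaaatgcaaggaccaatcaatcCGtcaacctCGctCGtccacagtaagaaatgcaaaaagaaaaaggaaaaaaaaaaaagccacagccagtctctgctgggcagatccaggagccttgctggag
Hoxd3: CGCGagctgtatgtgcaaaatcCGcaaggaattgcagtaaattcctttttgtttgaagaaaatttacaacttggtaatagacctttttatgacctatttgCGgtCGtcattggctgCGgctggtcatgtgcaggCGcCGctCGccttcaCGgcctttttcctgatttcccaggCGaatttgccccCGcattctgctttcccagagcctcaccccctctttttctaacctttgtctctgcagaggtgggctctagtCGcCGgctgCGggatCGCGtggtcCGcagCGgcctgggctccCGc
The high group held 13, 10, 4 and 25 CpG in this order and the low group 4, 6 and 20, so the groups overlapped. The median of the 22 was 13.5 CpG (4 to 45) against 7 over 27025 promoters of the same length, with 18 of the 22 above that median. CpG number had almost no rank relation to the level over these 22 genes, in untreated cells (rho 0.0646) or after EZH2i (rho -0.0261). The letters TATAAA, on either strand, were in 3 of the 22 (Hoxb8, Hoxd4 and Hoxd13) and in 14.2% of all promoters. The direct repeat that forms the consensus retinoic acid response element was searched without mismatches on both strands and found in none of the 22, and in 0.0074% of all promoters. A match or its absence says only whether these letters are in this window.

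On the library scale, where each library is divided by its own mean, the question becomes how the little H3K27me3 that remained was spread. Hox starts stayed above the library mean after EZH2i, with medians of 4.65 and 8.52 against 1.33 and 1.48 over all starts. They were above the EZH2i values in DMSO, with medians of 13.1 and 14.1. By cluster, the EZH2i medians were 10.4 ± 5.26 for Hoxb, 9.54 ± 2.23 for Hoxd, 6.62 ± 3.73 for Hoxa and 3.10 ± 1.24 for Hoxc (SD, n = 2), against 14.7, 14.2, 13.0 and 11.1 in DMSO. Hoxc had the lowest median in DMSO; after EZH2i the order of the clusters was not resolved, since Hoxa and Hoxc had the same median in replicate 1 (3.98). Both EZH2i libraries lay below both DMSO libraries at 27 of 38 starts (37.8% of all tested starts did so), and above both at 3, namely Hoxb1, Hoxb8 and Hoxd11 (22.6% did so). The other 8 overlapped (Hoxa9, Hoxa11, Hoxa13, Hoxb5, Hoxb6, Hoxc12, Hoxc13 and Hoxd13).

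Among the named genes, Hoxb1 had levels of 19.3 and 18.5 in DMSO and 29.2 and 49.6 in EZH2i, with every EZH2i value the higher. Its log2 difference was 1.01 with an SE of 0.45 (limma, Benjamini-Hochberg adjusted p = 0.292). The values tested were log2 of reads per window per 1e+06 window reads of the library, plus 0.05. Hoxb8, chosen after its values were seen, had 13.8 and 16.2 in DMSO and 17.3 and 60.8 in EZH2i, with the difference resting mostly on replicate 2. Hoxd11, chosen likewise, had 18.3 and 15.5 in DMSO and 31.9 and 53.4 in EZH2i. Hoxd12, the neighbour of Hoxd11 and the highest member in DMSO (21.7 and 22.4), had only 9.29 and 12.6 in EZH2i (log2 difference -1.02, SE 0.38, limma adjusted p = 0.237). The neighbours Hoxd11 and Hoxd12 thus changed places.

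Hoxd4 and Hoxa4, the lowest of their clusters in untreated cells, were lower in EZH2i than in DMSO. Hoxd4 went from 6.65 and 7.74 to 1.33 and 2.22 (log2 difference -1.98, SE 0.44, limma adjusted p = 0.119), and Hoxa4 from 9.46 and 9.63 to 2.66 and 6.67 (log2 difference -1.15, SE 0.60, adjusted p = 0.344). In both genes the groups did not overlap. Hoxc13 had 3.60 and 3.73 in DMSO and 3.98 and 2.22 in EZH2i, which overlap. Hoxc8 had 17.5 and 17.1 in DMSO and 14.6 and 14.8 in EZH2i, a small difference with the groups apart (log2 difference -0.23, SE 0.34, limma adjusted p = 0.680). Hoxa9, with 12.2 and 16.2 in DMSO, had 5.31 and 22.2 in EZH2i, and Hoxa11, with 19.4 and 19.1, had 3.98 and 43.0, so for these genes the EZH2i libraries went opposite ways. Replicate 2 had the higher level at most Hox starts after EZH2i, and the part of this spread in the results below was not tested.

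**Figure D4:**
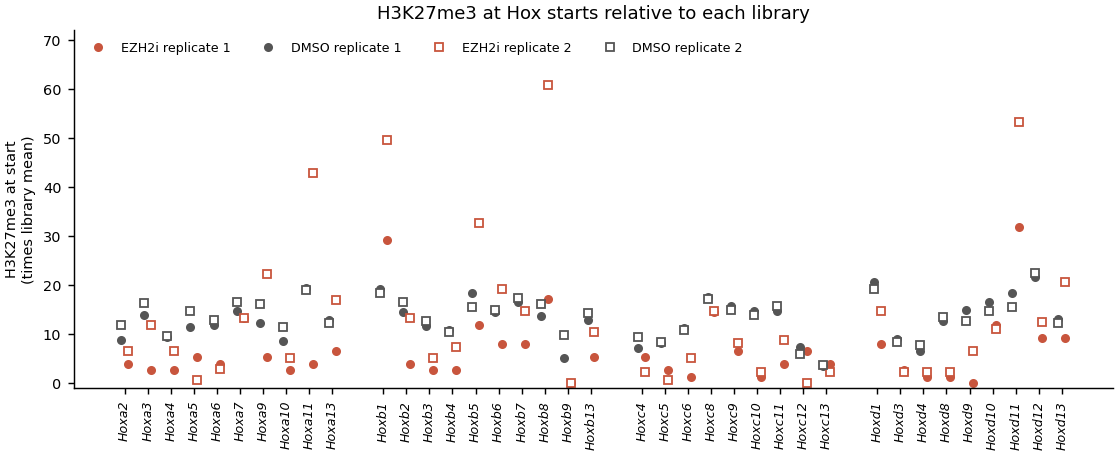
H3K27me3 level at each Hox start, in times the library mean, in the DMSO and EZH2i libraries, with 1 point per library. Both EZH2i points lie above both DMSO points at Hoxb1, Hoxb8 and Hoxd11 and below them at 27 of the 38 genes.

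None of the 38 library-scale differences at starts passed limma after Benjamini-Hochberg adjustment, nor did any of the 17634 starts tested (0%). An unadjusted limma p under 0.05 was found at 8 of 38 members and at 4126 of the 17634 starts, a similar share. The median log2 difference was -1.06 over the members, with 33 of 38 negative, and -0.64 over all starts. The weighted form of the test on window reads, limma-voom, called 6 members, against 11.2% of all starts (7.63% higher and 3.54% lower). Hoxd11 rose (log2 difference 1.38, SE 0.34, adjusted p = 0.0335), and Hoxb9, Hoxc5, Hoxc10, Hoxd8 and Hoxd9 fell by 3.89, 2.04, 2.68, 2.56 and 2.88 on the log2 scale, with adjusted p from 0.0111 to 0.0446. The value of Hoxb9 rests on no EZH2i read and depends on the added count. Over gene bodies, which hold more reads, both EZH2i libraries were above both DMSO libraries at 4 members (41% of all bodies were) and below at 24 (33%), and limma called 9 members, all lower (31.3% of all bodies were called, 24.2% higher and 7.13% lower). There limma-voom (an alternative chosen after seeing the data) called 17 members, against 46% of all bodies. The 4 higher were Hoxd11 (log2 difference 1.25, adjusted p = 0.000104), Hoxb6 (1.13, 0.000313), Hoxb1 (1.05, 0.00202) and Hoxb8 (1.03, 0.00194), and the 13 lower included Hoxd8 (-4.70, 1.31e-06), Hoxc10 (-2.17) and Hoxb9 (-2.02). The background is 33.1% for higher and 13% for lower calls. Hoxb6, a trunk gene, had body levels of 17.0 and 17.7 in DMSO and 21.5 and 57.0 in EZH2i (73 and 346 reads), and Hoxd8 had 7.73 and 9.38 in DMSO and no read in either EZH2i library over its 3 body windows.

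In limma at starts, leaving out EZH2i replicate 1 gave a median log2 difference of -0.56 over the members, against -0.19 over all starts. Leaving out EZH2i replicate 2 gave -1.33 against -0.47. With all libraries, the count of members called on the library scale ranged from 0 to 17 with tool and region. The share of all genes called ranged from 0% to 46%.

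The windows inside the clusters with the most H3K27me3 after EZH2i are given as a description, since they were picked by their EZH2i reads. Of 486 windows 47 held at least 20 EZH2i reads over both libraries. In 20 of the 47 both EZH2i libraries lay above both DMSO libraries, a smaller share than the 75.9% of windows picked in the same way over the genome (2661 of 3505), so nothing particular to Hox genes is read from this count. The 20 fell into Hoxb (13 windows), Hoxd (6) and Hoxc (1), with none in Hoxa. The highest in Hoxb, in the Hoxb6 gene at chr11:96299001-96300000, held 20 and 88 reads, with levels of 53.1 and 130 in EZH2i against 22.7 and 16.7 in DMSO. Another in Hoxb8, at chr11:96283001-96284000, had 37.2 and 90.4 against 17.9 and 17.6, and one at Hoxb1, at chr11:96366001-96367000, had 37.2 and 74.1 against 24.9 and 22.5. The highest in Hoxd, at chr2:74682001-74683000, had 50.5 and 99.3 against 25.6 and 21.4, and it holds the second listed Hoxd11 start, whose 25 CpG are shown above. The window with the first Hoxd11 start and its 4 CpG, at chr2:74679001-74680000, was also among the 20, with 34.5 and 44.5 against 14.8 and 13.4. The single Hoxc window, at chr15:102996001-102997000, had 18.6 and 28.2 against 15.0 and 14.4.

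How far the remaining reads were gathered in few windows was read from the 10 highest windows of each cluster, chosen in 1 EZH2i library and measured in the other. In Hoxd they held 44.8% and 41.7% of the EZH2i reads of the 97 windows between the listed genes, and 16.0% to 21.1% of the DMSO reads. In Hoxb (174 windows) they held 36.2% and 30.8%, against 11.9% to 14.4% in DMSO. In Hoxc (116 windows) the shares were 27.7% and 27.6% against 15.2% to 17.8%. In Hoxa (99 windows) they were 15.6% and 21.4% against 14.2% to 19.6%, which overlap. The windows were chosen from EZH2i reads, so the DMSO shares are given only for scale.

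**Figure D5:**
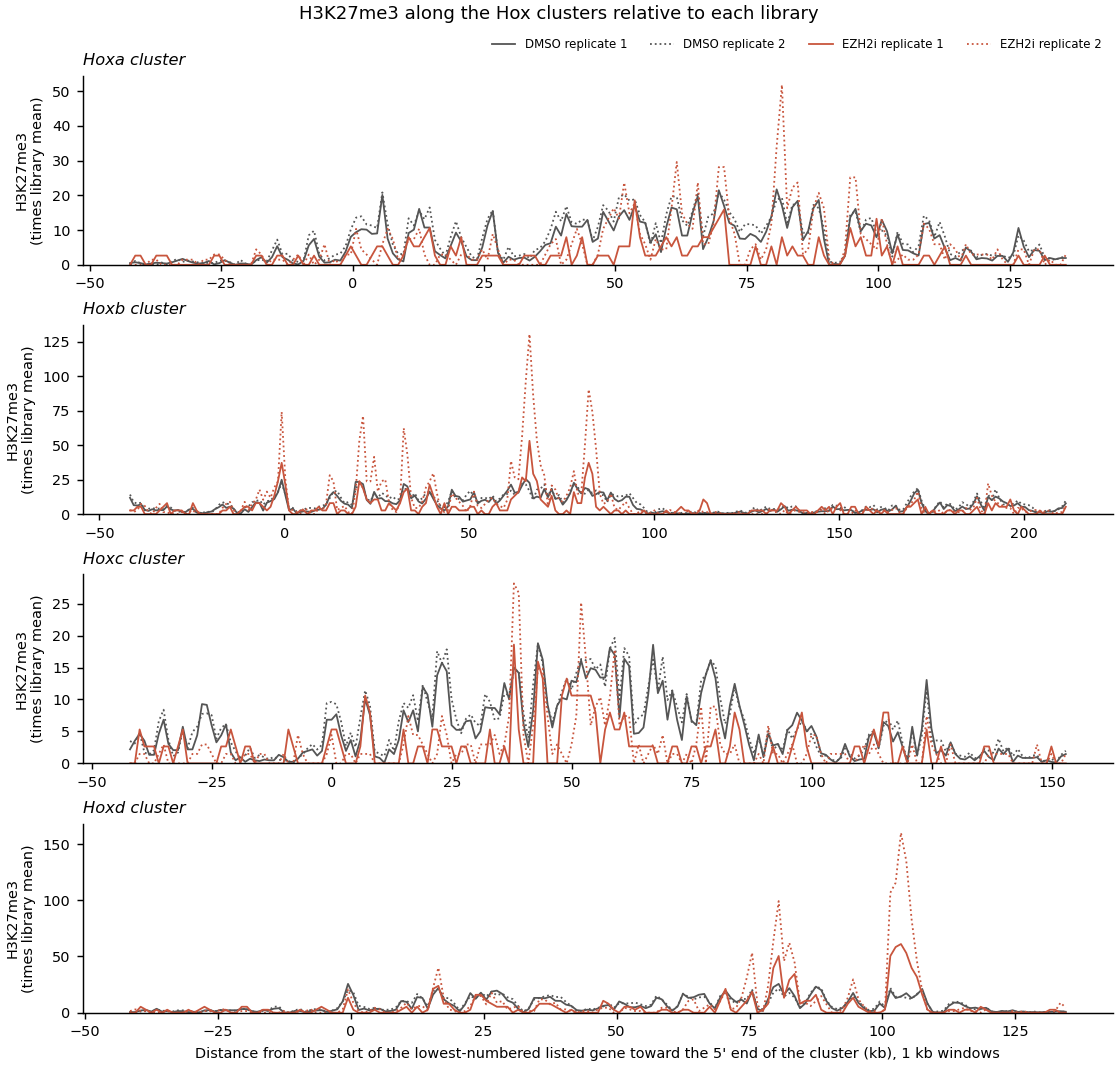
H3K27me3 level in 1 kb windows along each Hox cluster, in times the library mean, against the distance in kb from the start of the lowest-numbered listed gene towards the 5′ end, with 1 line for each DMSO and EZH2i library. The DMSO profiles are broad in all 4 clusters, whereas both EZH2i profiles rise in short stretches in Hoxb and Hoxd, highest over Evx2 beyond the 5′ end of Hoxd, and in Hoxa 1 library does so.

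The genes beside and around the Hox genes in the pathway were read from fixed lists of 22 genes: the TALE homeodomain cofactors, the Evx neighbours, the upstream regulators of the Cdx family and other genes beside the clusters. In untreated cells the start levels were 10.5 at Evx1 and 11.6 at Evx2, the homeobox genes at the 5′ side of Hoxa and Hoxd, 13.4 at Cdx2, which activates Hox genes in the trunk, and 1.97 at Cdx4. The 5 TALE cofactors with a placed start had 0.438 to 6.21, and the 7 other neighbours 0.0627 to 1.47. Of the 11 listed genes with enough H3K27me3 reads, 11 fell on the spike-in scale with limma, and none passed on the library scale. With limma-voom on the library scale 2 of 11 rose, Evx2 (log2 difference 2.79, adjusted p = 0.00461) and Cdx2 (2.23, adjusted p = 0.00380), and none fell. Evx2 had levels of 13.7 and 14.3 in DMSO and 59.7 and 138 in EZH2i (45 and 186 reads), above every Hox start in the same library. Cdx2 had 26.1 and 28.7 in DMSO and 98.2 and 156 in EZH2i. Evx1 did not stand out, with 10.7 and 13.2 in DMSO and 10.6 and 21.5 in EZH2i. Beside Hoxd, a further 6 windows over Evx2 were picked for holding at least 20 EZH2i reads and for lying above both DMSO libraries. All windows there with enough reads were not counted. The 6 are therefore not set against the 75.9% of windows with enough reads over the genome that lay above DMSO. The highest (chr2:74659001-74660000) had 61.1 and 160 against 14.4 and 14.3.

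H3K36me2 at the Hox genes was not shown to change. Scaled reads per window at the starts were higher in EZH2i on average at 34 of 38 members, with a median log2 difference of 0.22 (-0.17 at Hoxb1 to 0.71 at Hoxb8) against 0.06 over all starts. No member passed limma with Benjamini-Hochberg adjustment, against 0.182% of all starts (0.178% higher and 0.00387% lower), and every adjusted p was 1.00. None had an unadjusted limma p under 0.05, against 641 of 25818 starts. The limma-voom test called none either. In limma the SE was 0.57 for every gene, so changes of this size could not be resolved there. With the replicate number as a block, an unadjusted limma p under 0.05 was found at 7 members, against 3687 of 25818 starts. No member passed the adjustment in that fit either. Hoxb8, with the largest difference, had 394 and 200 in DMSO and 576 and 367 in EZH2i, which overlap. Both EZH2i libraries were above both DMSO libraries at Hoxb7, Hoxc11 and Hoxd11 (3 of 38, against 8.09% of all starts), and below at none (1.65%).

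Hoxd11, whose 223-fold fall in H3K27me3 was among the smallest, had 485 and 389 scaled H3K36me2 reads in DMSO and 738 and 496 in EZH2i, so the groups were apart by a small margin. Hoxa7, the richest in H3K36me2, had 1136 and 811 in DMSO and 1348 and 853 in EZH2i, which overlap. On the library scale no member passed limma either (0% of all starts did). Only 1 had an unadjusted limma p under 0.05 (Hoxb8, log2 difference 0.46, SE 0.19, adjusted p = 0.311), against 3896 of 25818 starts. The median log2 difference was 0.01, with 20 of 38 positive, against -0.13 over all starts. Both EZH2i libraries were above both DMSO libraries at 7 members (Hoxa3, Hoxb4, Hoxb8, Hoxc11, Hoxd9, Hoxd11 and Hoxd12, against 13.9% of all starts), and below at another 7 (Hoxa6, Hoxa9, Hoxa11, Hoxb1, Hoxb13, Hoxc8 and Hoxc13, against 36%). The order of the 38 genes in H3K36me2 was kept across treatment, with rho 0.883 to 0.918 between DMSO and EZH2i libraries, about that between replicates (0.902 and 0.896). For H3K27me3 the same comparison gave 0.564 to 0.734, with 0.882 between DMSO replicates and 0.696 between EZH2i replicates.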

How the data were processed

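The authors' deposited tracks hold log2 values in 1 kb windows every 500 bp, 1 track per library. Tested on the files, 2 to the power of a value, minus 1, was a whole number of reads times a fixed factor per library (within 0.02 reads), so window reads were recovered. The factor scaled to 1e+06 reads in the untreated libraries; in the others it was read as a scaling to the fly reads by the authors, the details of which are not given in the sources used here. The deposited peak lists, for 4 marks of untreated cells, carry a score per peak whose scale is not given in the sources used here; it was not used. Trim Galore 0.4.2, Bowtie2 2.2.6.2, SICER and the builds mm10 and dm3 are named per the submitters' processing notes. No input library was used.

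Starts came from the RefSeq promoter table (22 members) or the gene table's edge (16 members, with the strand of their cluster). Hoxa10 and Hoxd11 have 2 listed starts each, of which the one farthest 5′ was measured. The measured starts of Hoxc4, Hoxd10 and Hoxb8 lie 16298, 7618 and 2504 bp inside the listed gene. Adjoining, not overlapping, windows were summed. In the untreated libraries the mean was 0.502 to 0.503 scaled reads over 2633787 such windows, which is more than 1e+06 in all. A read may therefore be counted in more than 1 adjoining window, and window reads are not strictly separate reads. EZH2i was set against DMSO with limma 3.58.1 (R 4.3.3) on log2 values with a pseudocount. It was 1 for scaled reads per window, and 0.05 for reads per window per 1e+06 window reads of the library. Genes with a mean of at least 5 reads in the region over the 4 libraries were tested, with Benjamini-Hochberg adjustment at 0.05. Other steps used Python 3.11.15, pandas 2.3.3, numpy 2.4.6 and scipy 1.17.1. On simulated library-scale data at gene starts with 4-fold changes, limma recovered 0 of 98 raised and 0 of 91 lowered genes for H3K27me3 (17650 genes), and limma-voom 32 and 6. Over bodies (23928 genes) limma recovered 1 of 100 and 2 of 98 and called 169 unchanged genes, and limma-voom recovered 90 and 46 and called 23. The spread between simulated replicates was fixed beforehand and not estimated from these libraries. The simulation therefore cannot decide which test is better on the real data. For H3K36me2 (25824 genes) limma at starts recovered 100 of 100 and 94 of 98. Replicates differed by more than sampling noise (chi-square per degree of freedom 1.09 to 1.88) and were kept apart. The rule for named genes was the highest and lowest untreated H3K27me3 start of each cluster, members called on the library scale and members with no EZH2i read; other single genes were chosen after their values were seen. No measured value was used to choose the members, but they and the lists were chosen with earlier results of these data known.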

Additional observations from a re-analysis of the deposited data

How the results depend on the processing

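All 38 H3K27me3 calls on the spike-in scale were made under every alternative run, and no H3K36me2 call was made under any. The library-scale H3K27me3 count, 0 in limma, was 1 with a smaller pseudocount, 2 without the filter on low reads, 5 with a mean-variance trend, 6 with limma-voom, 9 over gene bodies and 17 over gene bodies with limma-voom (chosen after seeing the data), and 0 to 28 when each library was left out. The labels number the replicates, but do not say that a number marks a shared batch. Same-numbered libraries deviated together with r = 0.0325 for H3K27me3 and 0.187 for H3K36me2. With the replicate number as a block the members called were 38 (H3K27me3, spike-in scale), 0 (library scale) and 0 and 0 for H3K36me2, so the block changed no call of a member.

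Relative to the median start, the log2 median of the untreated level was 3.64 for H3K27me3, 0.42 for H3K36me2 and 0.62 for H3K36me3. Relative to the library mean, that of H3K27me3 was 2.95 at gene ends and, at starts in DMSO, 3.76. That of H3K36me3 on this baseline was 0.61 over 4 windows and 0.91 at gene ends. Values on different baselines are not compared. Before log2, the H3K27me3 medians relative to the library mean were 8.37 and 10.3 at untreated starts, and 13.1 and 14.1 in DMSO. The rank correlation of untreated H3K27me3 with paralogue number was 0.406 over bodies and -0.00606 to 0.255 in single libraries for Hoxa. For Hoxb it was -0.388 over 4 windows, -0.206 over bodies and 0.0667 at gene ends. For Hoxd it was 0.417, -0.05 and -0.125 in the same regions.

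Named genes that changed sign under an alternative passed no test there. For H3K27me3 on the library scale, Hoxd12 was 0.49 at its gene end, and leaving out a library gave -1.38 to 0.65 for Hoxa9 and -0.69 to 0.12 for Hoxc13. For H3K36me2 on the spike-in scale, gene ends gave 0.083 for Hoxa9, 0.074 for Hoxb1 and -0.028 for Hoxd4, and 4 windows gave -0.032 for Hoxa4 and 0.015 for Hoxc13. Leaving out a library there gave -0.56 to 0.40 for Hoxa9, -0.47 to 0.14 for Hoxb1, -0.25 to 0.48 for Hoxc8, -0.17 to 0.72 for Hoxd12, -0.22 to 0.31 for Hoxa4, -0.18 to 0.39 for Hoxb9, -0.45 to 0.28 for Hoxc13 and -0.36 to 0.57 for Hoxd4. The median over all starts also moved in these fits, between -0.30 and 0.45, against 0.06 with all libraries, so these ranges are not particular to the named genes. On the library scale Hoxc8 was 0.15 over its body (0.15 with limma-voom) and 0.53 at its end, Hoxb9 was 0.011 over its body (0.021 with limma-voom) and 0.069 at its end, and leaving out a library gave -0.37 to 0.084 for Hoxa4, -0.39 to 0.21 for Hoxb9 and -0.25 to 0.061 for Hoxd4. The cause was not tested. Depth limits the H3K27me3 values after EZH2i, where 1 read more or less moves a start by 0.242 scaled reads per 2 windows in replicate 1 and 0.099 in replicate 2.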
